A study of Sus scrofa with 28 samples.

Results

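The genes described here take glucose or fructose into the cell and carry out the first committed steps of sugar use. The rule named 9 of them: the transporters SLC2A1, SLC2A3, SLC2A4, SLC2A5 and SLC2A6, the hexokinases HK1, HK2 and HK3, and the regulatory enzyme PFKFB3. Of these 9, 7 had a row under their symbol among the 17603 genes of the count tables, and SLC2A1 and SLC2A3 were not analysed here. A symbol was missing for 3933 genes, so it was not established whether SLC2A1 or SLC2A3 was counted under an identifier alone. The members were chosen on results of these data that included the difference between zones on day 3. That difference is therefore given as a description, with no test. Day 28 was tested, but the members and the other gene lists were chosen with earlier results of these data known. The day 28 p-values may therefore not be free of that choice. RNA was sequenced in bulk from 28 pieces of left ventricle of 14 pigs aged 3 months, 1 piece of infarct zone and 1 of remote zone per animal. All pigs had 60 min of coronary balloon occlusion followed by reperfusion, so the remote zone comes from an injured heart and there was no heart without infarct. The animals were wild type and received saline (named PBS in the sample labels) or recombinant human agrin, a matrix protein (rhAgrin), into the coronary artery at 33 µg per kg of body weight. Hearts were taken on day 3 or day 28, from 3 saline and 4 rhAgrin animals on each day.

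Sugar enters cells through facilitative transporters of the SLC2A (GLUT) family. SLC2A4 (GLUT4) is the insulin-responsive form of heart, skeletal muscle and fat, SLC2A1 (GLUT1) is widespread, and SLC2A3 (GLUT3) has a high affinity for glucose and is used by neurons and leukocytes. SLC2A5 (GLUT5) carries fructose and is best known from the small intestine, and SLC2A6 (GLUT6) is rich in leukocytes and spleen of human and mouse. Hexokinases trap glucose as glucose 6-phosphate. HK1 is the widespread form, HK2 the insulin-regulated form of muscle and of growing cells, and HK3 the form of myeloid cells. PFKFB3 makes fructose 2,6-bisphosphate, the activator of phosphofructokinase, and is induced in hypoxia and in activated leukocytes.

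The promoters of 4 members are shown: SLC2A4 and SLC2A5, the transporters whose levels differed most between zones in either direction on day 3, and HK2 and HK3, the hexokinases that were higher in the infarct zone on that day. Each run is the 250 bases before the gene start in the RefSeq annotation of Sscrofa11.1, written 5′ to 3′ on the strand of the gene. SLC2A4 is on the plus strand (chr12:52628496-52628745), SLC2A5 on the minus strand (chr6:69535795-69536044), HK2 on the minus strand (chr3:68231188-68231437) and HK3 on the plus strand (chr2:81042151-81042400). Capitals mark matches on either strand to 4 motifs. The core of the hypoxia response element was searched as ACGTG. The E-box was searched as CACGTG and holds the hypoxia core within it. The purine-rich core of ETS factor sites was searched as GAGGAA, and the last motif was the MEF2 consensus.
SLC2A4: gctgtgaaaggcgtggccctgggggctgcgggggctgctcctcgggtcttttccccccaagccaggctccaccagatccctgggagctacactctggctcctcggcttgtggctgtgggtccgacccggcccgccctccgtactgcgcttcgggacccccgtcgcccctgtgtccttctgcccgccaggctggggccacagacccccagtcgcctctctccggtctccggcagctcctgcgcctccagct
SLC2A5: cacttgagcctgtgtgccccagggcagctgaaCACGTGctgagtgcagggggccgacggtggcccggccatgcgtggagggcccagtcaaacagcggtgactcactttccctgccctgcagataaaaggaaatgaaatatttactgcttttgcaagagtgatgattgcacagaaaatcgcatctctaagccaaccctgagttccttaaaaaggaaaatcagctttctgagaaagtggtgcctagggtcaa
HK2: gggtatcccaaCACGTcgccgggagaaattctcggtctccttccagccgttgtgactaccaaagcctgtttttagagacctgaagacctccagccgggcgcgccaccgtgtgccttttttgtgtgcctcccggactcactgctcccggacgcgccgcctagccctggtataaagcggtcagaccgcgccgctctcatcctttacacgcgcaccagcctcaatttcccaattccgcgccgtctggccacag
HK3: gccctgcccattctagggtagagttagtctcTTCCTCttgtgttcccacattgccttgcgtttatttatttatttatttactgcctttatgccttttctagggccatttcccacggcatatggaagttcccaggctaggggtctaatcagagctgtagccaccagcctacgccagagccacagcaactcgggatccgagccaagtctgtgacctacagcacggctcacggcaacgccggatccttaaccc
The SLC2A5 window held CACGTG, whose first base lay at position -218 from the gene start. Among 19556 promoters of the same length, 6.39% held that E-box. ACGTG was in the windows of SLC2A5, HK2, HK1 and SLC2A1, and in 18.7% of all promoters. GAGGAA, read on the opposite strand as TTCCTC, was at position -219 of HK3 and in 22.0% of all promoters. No member held the MEF2 consensus, which 2.55% of promoters held. HK1, which was lower in the infarct zone, and HK2, which was higher there on day 3, both held ACGTG, so the matches did not follow the direction of the members.

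The 7 measured genes lie on 7 chromosomes of Sscrofa11.1, by the RefSeq annotation matched on symbol, and counts were summed over the exons of each. Among the transporters SLC2A4 (ENSSSCG00000023915) spans chr12:52628746-52634965, SLC2A5 (ENSSSCG00000039651) spans chr6:69507829-69535794 and SLC2A6 (ENSSSCG00000024166) spans chr1:273063261-273075455. The hexokinase HK1 (ENSSSCG00000010253) spans chr14:72383328-72460927, HK2 (ENSSSCG00000008261) spans chr3:68155656-68231187 and HK3 (ENSSSCG00000014048) spans chr2:81042401-81060832. PFKFB3 (ENSSSCG00000011133) spans chr10:64776315-64859118.

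Library totals ranged from 15.38 to 34.77 M counts. Levels are given as CPM, the counts brought to a common library size with TMM (trimmed mean of M-values) scaling. A gene passed the test between groups when its adjusted p from edgeR was under 0.05, its fold change at least 2 and its highest count above 30. Cardiomyocyte markers were present at high levels in every remote library (summed level of 9 genes, 48393 to 96989 CPM) and were lower in the infarct zone on day 3 (2524 to 17153 CPM). Both zones of animal 573 (saline, day 3) are labelled as 1 pig. Its infarct library held 173 counts of the Y-linked gene KDM5D and its remote library 0, which goes against the label of a single animal. The infarct library of animal 523 (saline, day 28) stood apart, with 6.825% of counts from mitochondrial genes, the lowest of 7 day 28 infarct libraries. Where leaving out either animal changed a call or a range overlap, both values are given. Fewer cells of a type and less RNA per cell cannot be told apart in bulk tissue.

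On day 3 the muscle glucose transporter SLC2A4 was lower in the infarct zone in 7 of 7 animals, whereas SLC2A5, SLC2A6, HK3 and PFKFB3 were higher there in 7 of 7. HK2, the other muscle form, was also higher in 7 of 7. In saline animals 5 of 7 members passed the threshold as higher and 1 as lower, in a comparison that called 18.2% of 15409 genes higher and 16.5% lower. In rhAgrin animals the members gave the same counts, with 19.3% of genes called higher and 15.5% lower. These shares stand beside counts that the choice of members had used, and nothing is read from them.

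SLC2A4 measured 4.93, 26.3 and 10.6 CPM in the infarct zone of saline animals 571, 573 and 575 on day 3, and 242, 235 and 227 CPM in their remote zone. In rhAgrin animals 570, 572, 576 and 577 it was at 20.4, 37, 16.9 and 10.8 CPM in the infarct zone and at 334, 237, 278 and 184 CPM in the remote zone. No infarct library of day 3 came near any remote one. The fold change on the log2 scale was -4.38 ± 0.51 (SE) in saline animals and -3.71 ± 0.42 in rhAgrin animals. Without animal 573 the saline value was -5.01 ± 0.55.

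HK2 did not follow SLC2A4. Its infarct levels on day 3 were 25.9, 15.2 and 47.6 CPM in saline animals 571, 573 and 575, against 15.1, 2.02 and 13.6 CPM in the remote zone. The rhAgrin animals 570, 572, 576 and 577 gave 24.8, 13.7, 33.4 and 35.3 CPM in the infarct zone and 11.9, 5.2, 10.2 and 8.66 CPM in the remote zone. Every animal was higher in its infarct zone, but the ranges of the zones overlapped, because animals differed widely. On the log2 scale the fold change was 1.70 ± 0.35 in saline and 1.55 ± 0.29 in rhAgrin animals, and 1.30 ± 0.35 in saline animals without animal 573. Among 28 libraries HK2 was lowest in the remote zone of that animal.

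HK1 was lower in the infarct zone of all 7 animals on day 3, from 199 to 304 CPM against 373 to 577 CPM in the remote zone, with no overlap. This gave a log2 fold change of -0.94 ± 0.19 in saline animals and -0.96 ± 0.16 in rhAgrin animals, just under the fold threshold in both. The same gene passed it in saline animals without animal 573 (-1.18 ± 0.20) and, in rhAgrin animals, without animal 576 (-1.05).

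SLC2A5 showed the widest zone difference of the 7 members. Saline animals 571, 573 and 575 had 2854, 1139 and 1932 counts in the infarct zone and 2, 0 and 1 counts in the remote zone. A count of 0 at the depth of the remote library of animal 573 allows up to 0.195 CPM before TMM scaling. In rhAgrin animals 570, 572, 576 and 577 the counts were 1949, 1239, 1517 and 1907 in the infarct zone against 28, 2, 1 and 14 in the remote zone. The fructose transporter was thus near the counting limit in 5 of 7 remote libraries and abundant in all 7 infarct libraries. Summed over animals and scaled to library size, the infarct to remote ratio was 1267 in saline animals (95% exact interval 433 to 6147, counting error only) and 104 in rhAgrin animals (77.9 to 143). Without animal 571 the saline ratio was 2155 (387 to 85152), with 1 remote count left, and without animal 573 it was 1075 (368 to 5216). Without animal 570 the rhAgrin ratio was 194 (121 to 333).

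HK3 reached 98.3, 36.8 and 93.9 CPM in the infarct zone of saline animals 571, 573 and 575 and stayed at 4.42, 6.15 and 8.03 CPM in their remote zone. The rhAgrin animals 570, 572, 576 and 577 had 67.7, 45.4, 66.7 and 79.3 CPM in the infarct zone and 3.78, 5.1, 8.65 and 5.81 CPM in the remote zone. The zones did not overlap, and animal 573 had the lowest of the infarct levels. The log2 fold change was 3.55 ± 0.30 in saline animals, 3.98 ± 0.28 without animal 573, and 3.49 ± 0.25 in rhAgrin animals.

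PFKFB3 was at 321, 113 and 96.5 CPM in the infarct zone of saline animals 571, 573 and 575 and at 18.9, 22.3 and 13.4 CPM in the remote zone. In rhAgrin animals 570, 572, 576 and 577 it was at 227, 167, 78.2 and 83 CPM against 21.6, 18.3, 7.27 and 7.97 CPM. The 3 animals with the lowest infarct levels (575, 576 and 577) also had the lowest remote levels. The log2 fold change was 3.09 ± 0.26 in saline animals, 3.47 ± 0.27 without animal 573, and 3.34 ± 0.23 in rhAgrin animals. SLC2A6 stood lower in both zones, at 5.58 to 14.4 CPM in the 7 infarct libraries and 0.798 to 2.27 CPM in the 7 remote libraries. Its log2 fold change was 2.04 ± 0.28 in saline animals, 2.20 ± 0.34 without animal 573, and 2.29 ± 0.25 in rhAgrin animals.

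**Figure D1:**
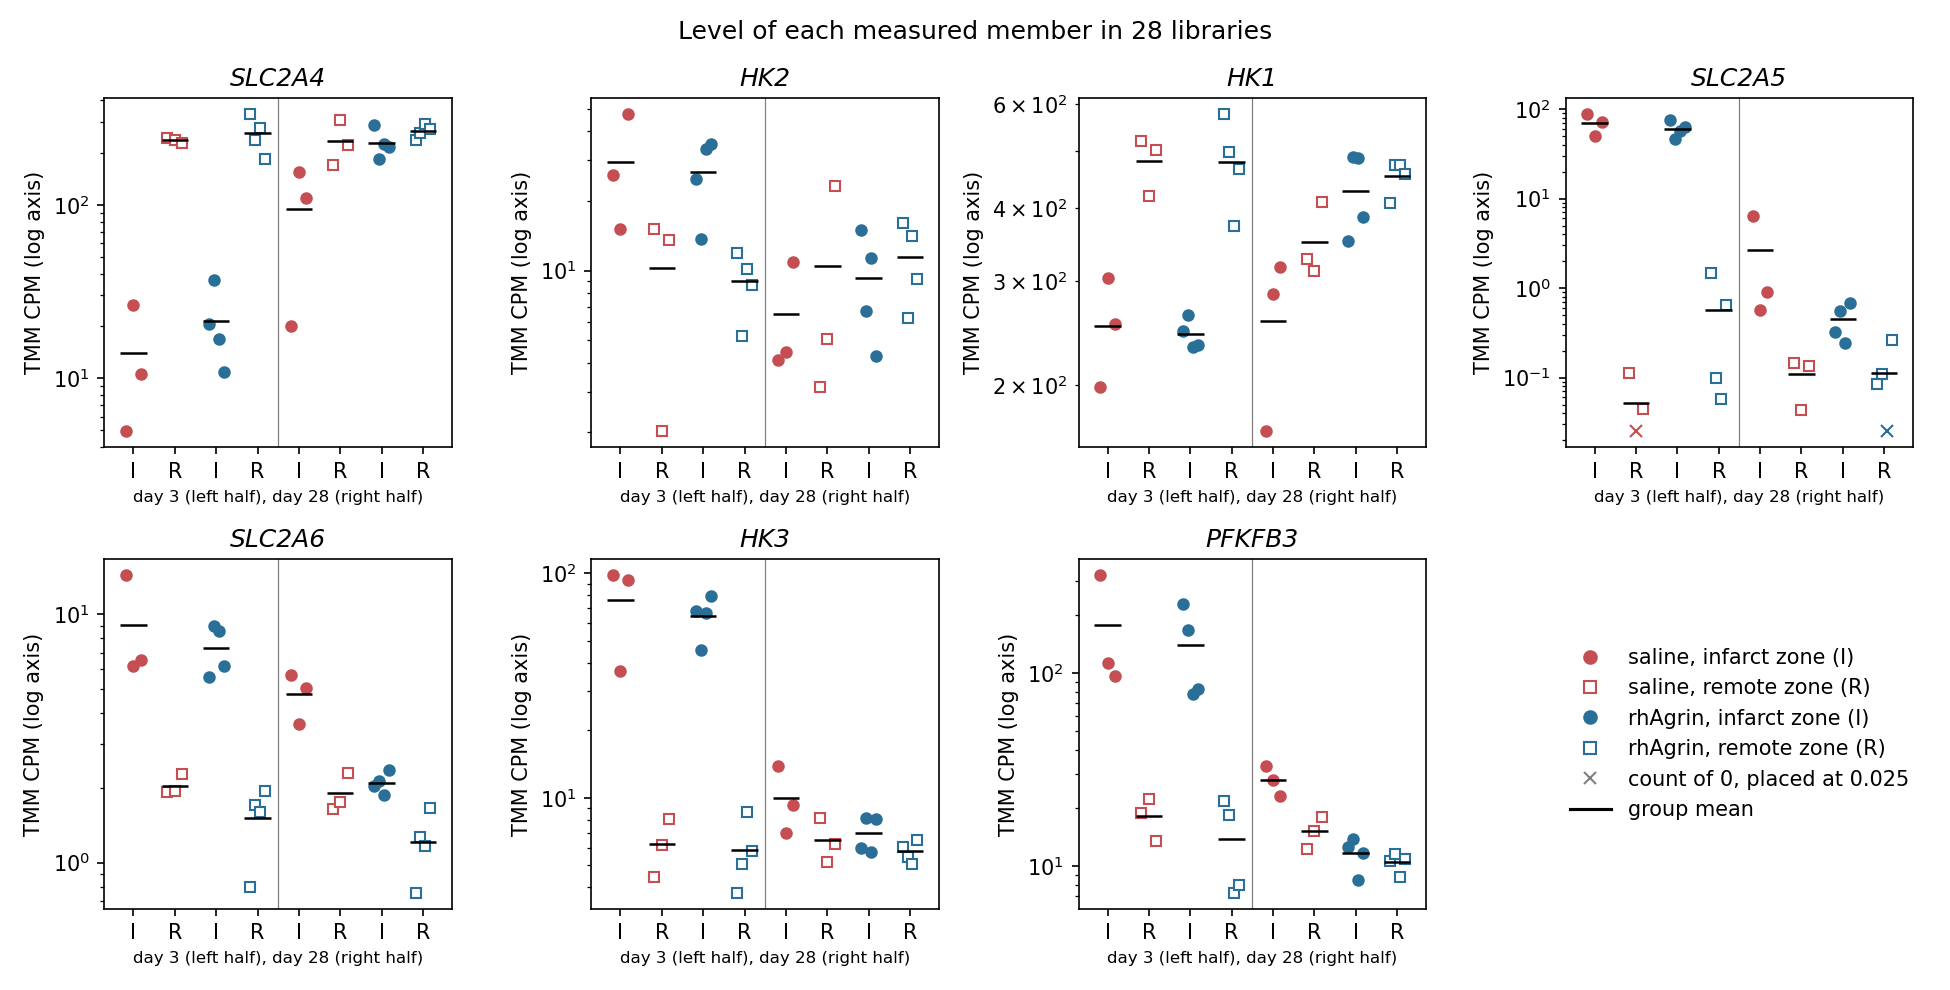
TMM-scaled CPM (log axis) of the 7 measured members in each of 28 libraries, by zone (I infarct, R remote), treatment (colour) and day (left and right of the vertical line); black lines are group means and crosses mark counts of 0. On day 3 the infarct libraries of SLC2A5 sit between 46.9 and 88.5 CPM and those of SLC2A4 between 4.93 and 37 CPM, against 184 to 334 CPM for SLC2A4 in the remote zone.

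Compared per kilobase of exon, HK1 was the main hexokinase of the 3 in every library. On day 3 it held a median of 96.7% of the summed HK1, HK2 and HK3 level per kilobase in the remote zone (range 94.8 to 98%, 7 libraries) and 68.7% in the infarct zone (60.7 to 84.8%). HK3 held 19.9% (10.3 to 30.1%) in the infarct zone and 1.21% (0.638 to 2.21%) in the remote zone. The share of HK2 was 9.16% (4.91 to 13.7%) against 2.32% (0.548 to 3.24%). The summed level of the 3 enzymes was nonetheless not higher in the infarct zone, at 89.8 to 112 CPM per kilobase against 109 to 165 in the remote zone. By day 28 HK1 held 90 to 96.8% in the infarct zone and 92.5 to 97.4% in the remote zone, and the ranges overlapped. Lengths came from the RefSeq annotation, not from the one used for counting.

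**Figure D2:**
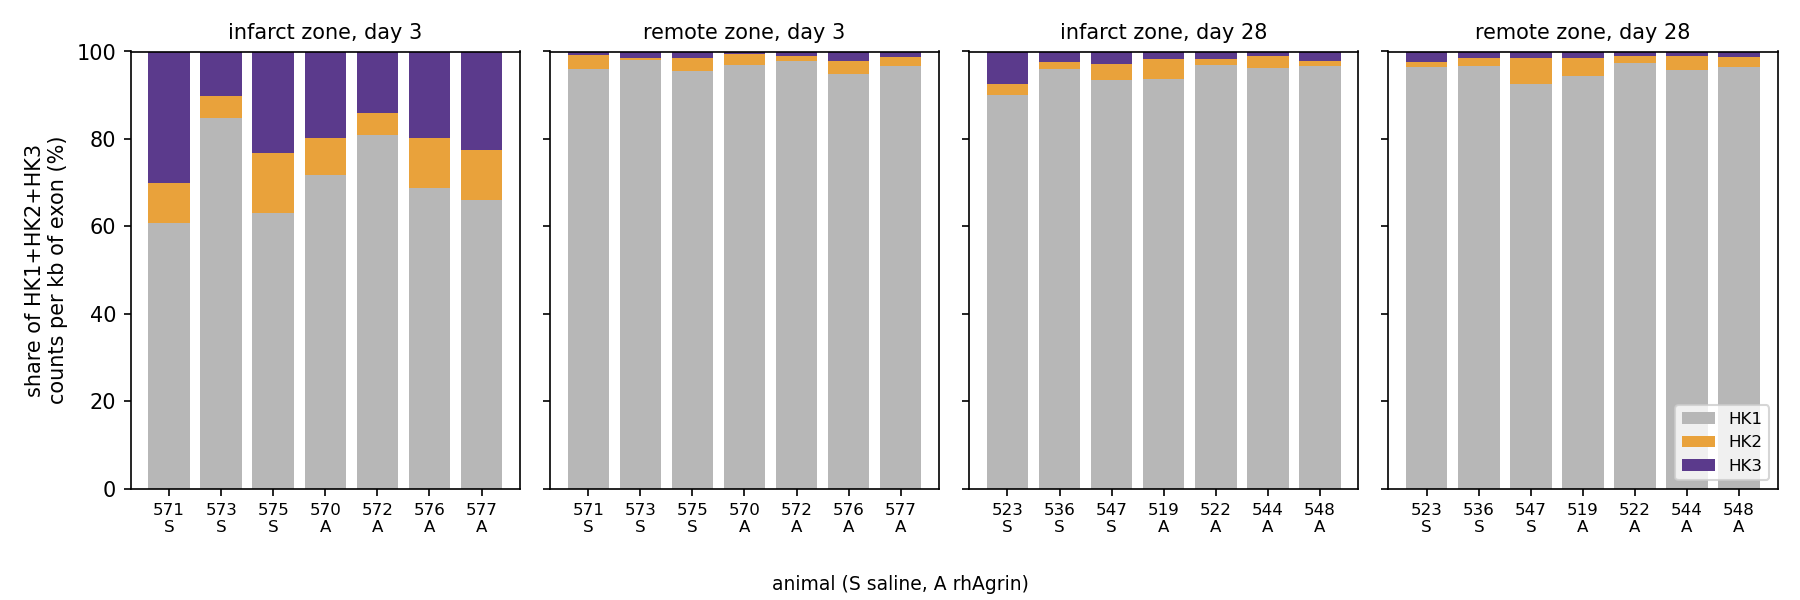
Share of HK1, HK2 and HK3 in their summed level per kilobase of exon (percent, stacked bars) in each library, by zone and day; S marks saline and A rhAgrin animals. HK3 takes 10.3 to 30.1% of the bar in the day 3 infarct zone and at most 2.4% in any remote library.

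By day 28 the saline infarct zone still differed from the remote zone in 3 of the 7 members, while no member passed in rhAgrin animals. In saline animals SLC2A5 and SLC2A6 were higher and SLC2A4 was lower in the infarct zone. Of all 15409 genes, 5.58% were called higher and 2.25% lower in this comparison. All 3 calls depended on animal 523, as given below.

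SLC2A4 measured 19.9, 155 and 110 CPM in the infarct zone of saline animals 523, 536 and 547 and 169, 307 and 222 CPM in their remote zone. It was lower in the infarct zone of all 3, and the zones did not overlap. The log2 fold change was -1.66 ± 0.46 (edgeR, adjusted p = 0.0193). Without animal 523 it was -0.98 ± 0.44 (adjusted p = 0.217), and in a fit without the animal block it was -1.29 (adjusted p = 0.116). In rhAgrin animals 519, 522, 544 and 548 the levels were 287, 183, 225 and 216 CPM in the infarct zone and 236, 258, 291 and 274 CPM in the remote zone, which overlapped (-0.23 ± 0.37, adjusted p = 1).

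SLC2A5 had 183, 17 and 24 counts in the infarct zone and 4, 1 and 3 counts in the remote zone of saline animals 523, 536 and 547. Animal 523 held most of these counts. In the model its log2 fold change was 4.50 ± 0.68 (edgeR, adjusted p = 0.00103), and 3.00 ± 0.95 (adjusted p = 0.0854) without that animal. The ratio of summed and scaled counts was 23.8 (95% exact interval 11.9 to 55.9), or 8.15 (2.95 to 31.3) without animal 523. In rhAgrin animals 519, 522, 544 and 548 the counts were 6, 18, 6 and 19 against 2, 3, 0 and 6, a ratio of 4.13 (2.12 to 8.8). These intervals cover counting error only. The model gave 1.97 ± 0.71 with an adjusted p of 1, so the rhAgrin difference did not pass, although all 4 animals were higher in the infarct zone.

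SLC2A6 was at 5.68, 3.63 and 5.03 CPM in the infarct zone of saline animals 523, 536 and 547 and at 1.64, 1.76 and 2.3 CPM in the remote zone, with no overlap. The log2 fold change was 1.32 ± 0.27 (edgeR, adjusted p = 0.00465), and 1.11 ± 0.32 (adjusted p = 0.0622) without animal 523. The rhAgrin animals 519, 522, 544 and 548 had 2.03, 2.14, 1.88 and 2.35 CPM in the infarct zone and 0.756, 1.27, 1.17 and 1.66 CPM in the remote zone. All 4 were higher in the infarct zone, but the difference of 0.81 ± 0.26 had an adjusted p of 1.

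The other 4 members did not pass in saline animals on day 28. PFKFB3 was at 32.9, 28 and 23.1 CPM in the infarct zone of animals 523, 536 and 547 against 12.3, 15.2 and 18 CPM, and its log2 difference of 0.89 ± 0.25 (edgeR, adjusted p = 0.0196) was under the fold threshold, though it passed without animal 547. HK3, which had differed most among the hexokinases on day 3, gave 0.60 ± 0.27 (adjusted p = 0.126). HK2 gave -0.35 ± 0.35 (adjusted p = 0.491) and HK1 -0.49 ± 0.18 (adjusted p = 0.0661). In rhAgrin animals edgeR called 0 of 7 members and 0% of 15409 genes. There, 2 members (SLC2A5 and SLC2A6) and 3.87% of all genes had an unadjusted p under 0.05, and DESeq2 also called 0 members and 0 genes.

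**Figure D3:**
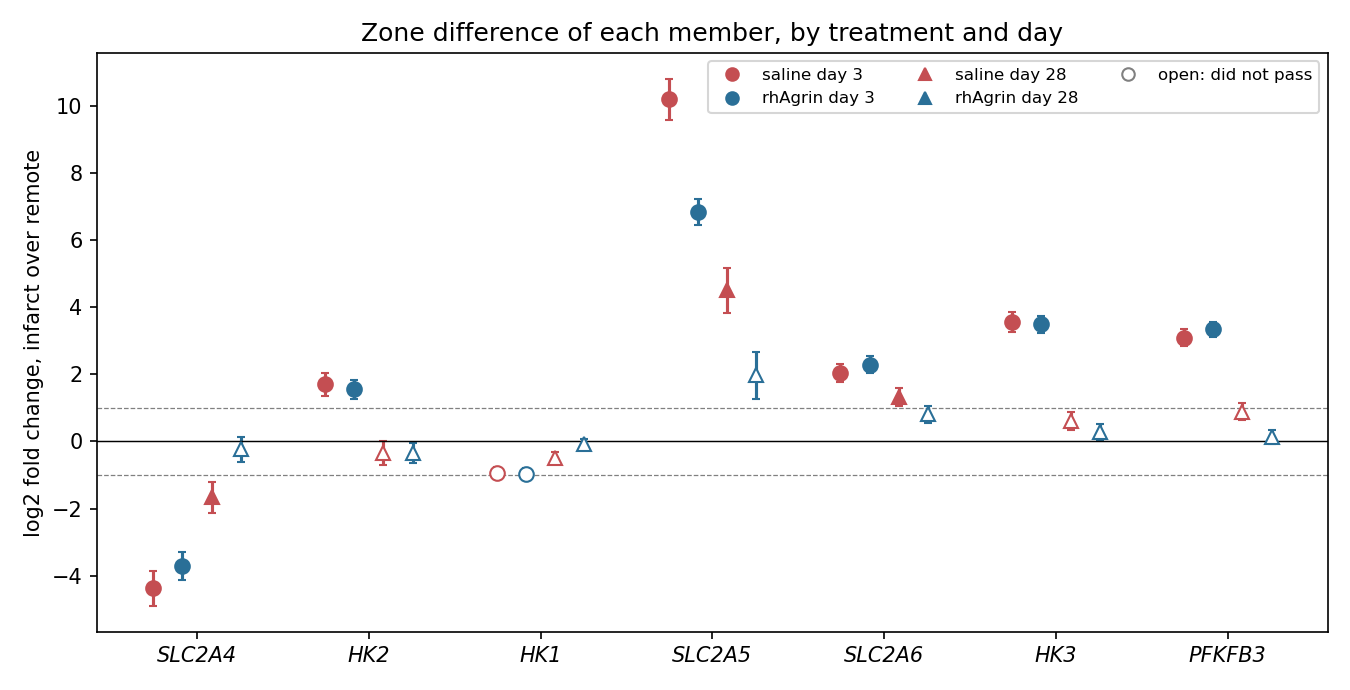
Fold change between infarct and remote zone (log2 scale, edgeR, bars are SE) of each member in 4 comparisons; filled symbols passed the thresholds and dashed lines mark a fold change of 2. SLC2A4 moves from -4.38 on day 3 to -1.66 on day 28 in saline animals and from -3.71 to -0.23 in rhAgrin animals; the day 3 values had been used in choosing the members.

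Whether rhAgrin changed the response to infarction was asked directly, as the zone difference in rhAgrin animals minus that in saline animals. No member passed on either day. On day 28 SLC2A4 gave 1.43 ± 0.59 (edgeR, adjusted p = 0.179), SLC2A5 -2.53 ± 1.18 (adjusted p = 0.233) and PFKFB3 -0.75 ± 0.33 (adjusted p = 0.201), in a test that called 0.487% of genes, all of them lower. The 0 of 7 members on day 28 compare with 2 at an unadjusted p under 0.05 and 0 by DESeq2. Over all 15409 genes, 21.6% had an unadjusted p under 0.05 on that day and DESeq2 called 409. On day 3 the adjusted p was 1 for all 7 members, with 1 (SLC2A5, -3.36 ± 1.04) at an unadjusted p under 0.05. That value rests on the 0 to 28 counts of the remote libraries. edgeR called 0% of genes on day 3, with 684 at an unadjusted p under 0.05 and 2 by DESeq2. So the passing of 3 members in saline but not in rhAgrin animals on day 28 was not matched by a tested difference between the treatments.

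When the infarct zones of the treatments were compared directly on day 28, SLC2A6 was lower after rhAgrin. Its levels of 1.88 to 2.35 CPM in 4 rhAgrin animals lay below the 3.63 to 5.68 CPM of 3 saline animals, a log2 difference of -1.16 ± 0.30 (edgeR, adjusted p = 0.0379). This comparison called 4.04% of 14968 genes lower and 0.261% higher. The call was lost in 7 of 14 fits that each left out 1 animal, with an adjusted p of 0.162 without animal 523. In the remote zone SLC2A6 was lower after rhAgrin too, without passing (-0.65 ± 0.32, edgeR, adjusted p = 0.967). The difference between treatments in its zone difference was -0.51 ± 0.37 (edgeR, adjusted p = 0.443). In the infarct zone PFKFB3 also had no overlap, at 8.42 to 13.8 CPM against 23.1 to 32.9 CPM. Its difference of -1.25 ± 0.44 did not pass (edgeR, adjusted p = 0.0923). SLC2A5 gave -2.45 ± 0.70 (adjusted p = 0.051), and -0.62 ± 0.43 without animal 523. SLC2A5 passed without animal 536 or 547, and PFKFB3 without animal 571. DESeq2 called all 3, with adjusted p-values of 0.00262 for SLC2A5 and 0.0339 for PFKFB3, beside 991 of all 14968 genes. HK1 was at 351 to 487 CPM against 167 to 317 CPM, a difference of 0.75 ± 0.22 (edgeR, adjusted p = 0.0575). On day 3 no member passed between the infarct zones: edgeR called 0 of 7 members and 0% of genes, 0 members and 170 genes had an unadjusted p under 0.05, and DESeq2 called 0 members and 0 genes.

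Within the infarct zone, day 28 was set against day 3, which uses the day 3 levels and is again a description. SLC2A4 was higher on day 28 by 2.87 ± 0.71 on the log2 scale in saline animals and by 3.52 ± 0.63 in rhAgrin animals. Each of HK2, SLC2A5, HK3 and PFKFB3 was lower on day 28 in both treatments. The differences were -2.12 ± 0.56 and -1.44 ± 0.47 for HK2, -2.87 ± 0.37 and -3.12 ± 0.33 for HK3, and -2.61 ± 0.49 and -3.48 ± 0.45 for PFKFB3, saline first. For SLC2A5 they were -4.67 ± 0.69 and -6.90 ± 0.70. The saline value of SLC2A5 was -6.54 ± 0.42 without animal 523. SLC2A6 gave -0.87 ± 0.31 in saline animals, under the fold threshold, and -1.70 ± 0.28 in rhAgrin animals. In saline animals it passed without animal 523 (-1.05 ± 0.36), without animal 573 (-1.09 ± 0.32) and without animal 575. In saline animals 1 member passed as higher and 4 as lower, or 5 as lower without any 1 of these 3 animals, beside 15.6% and 10.4% of 14968 genes. In rhAgrin animals the counts were 1 and 5, beside 17.7% and 16.3%, and HK2 no longer passed without animal 522.

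In the remote zone no member passed between days or treatments. SLC2A4 stayed at 169 to 334 CPM and HK3 at 3.78 to 8.65 CPM over all 14 remote libraries. HK2 ranged from 2.02 to 23.2 CPM. On day 28 some animals were high or low in both zones: animal 519 had 15 CPM in the infarct and 16.1 CPM in the remote zone, animal 547 had 10.9 and 23.2 CPM, and animal 523 had 4.1 and 3.14 CPM. In each of 4 comparisons, rhAgrin against saline on each day and day 28 against day 3 in each treatment, edgeR called 0 of 6 members tested and 0% of 14324 genes. SLC2A5 was too low to be tested there. Over these comparisons 554 to 1465 genes had an unadjusted p under 0.05 and DESeq2 called 1 to 38. DESeq2 called 0 members in each, and HK1 had an unadjusted p under 0.05 in 2 of the 4, lower on day 28 in saline animals (-0.46 ± 0.16) and higher after rhAgrin on day 28 (0.36 ± 0.15).

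Ratios of counts within a library need no scaling between libraries. The log2 ratio of SLC2A5 to SLC2A4 (1 added to each count) was 0.91 to 4.16 in the infarct zone of saline animals on day 3, against -11.56 to -10.48 in the remote zone. So the fructose transporter outnumbered the muscle glucose transporter in counts in every day 3 infarct library, and in no other library. Their exon lengths were 2.57 and 2.441 kb, so the order is the same per kilobase. In rhAgrin animals the ranges were 0.34 to 2.53 and -11.25 to -7.76. By day 28 the infarct ratio was -8.02 to -1.62 in saline animals, with the highest value in animal 523, and -9.62 to -8.22 in rhAgrin animals. The ratio of HK3 to HK2 was less clear. In the infarct zone on day 3 it was 0.98 to 1.92 in saline and 1.00 to 1.72 in rhAgrin animals. The remote zone spanned -1.76 to 1.57 in saline animals, so the zones overlapped there. The 1.57 was the remote library of animal 573, and without that animal the remote values were -1.76 and -0.76, below both infarct values (1.92 and 0.98). In rhAgrin animals the remote range was -1.64 to -0.03, with no overlap.

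**Figure D4:**
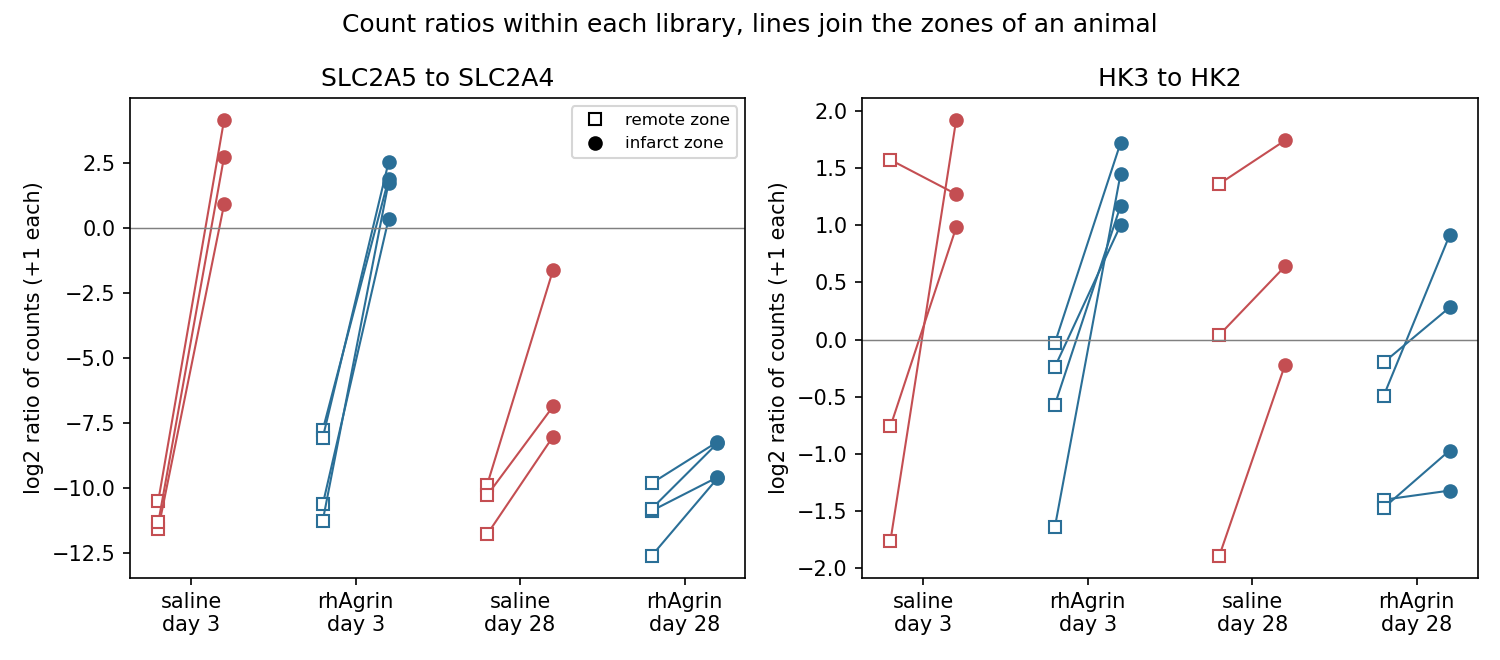
Log2 ratio of counts (1 added to each) of SLC2A5 to SLC2A4 and of HK3 to HK2 in each library; lines join the remote zone (open squares) and infarct zone (filled circles) of an animal, and colour marks the treatment as on the axis. SLC2A5 exceeds SLC2A4 in all 7 day 3 infarct libraries and in no other library, while the HK3 to HK2 ratio of animal 573 (saline, day 3) is higher in its remote zone.

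Cell type markers moved with the members, and their part in these results was not tested. In saline animals on day 3 the 7 pan-leukocyte markers tested were all higher in the infarct zone. Their summed level was 1228 to 1806 CPM in the 3 saline infarct libraries and 89.4 to 145 CPM in the remote ones, and no marker was at 0 in all libraries. Neutrophil markers (6 genes) summed to 60.2 to 101 CPM against 2.26 to 5.53 CPM, and macrophage markers (12 genes) to 1574 to 2622 CPM against 435 to 534 CPM. On day 28 the pan-leukocyte sum was 198 to 400 CPM in the saline infarct zone, highest in animal 523, and 92.4 to 202 CPM in the rhAgrin infarct zone. Cardiomyocyte markers summed to 10095, 55652 and 51223 CPM in the infarct zone of saline animals 523, 536 and 547, and to 67569 to 79365 CPM in that of rhAgrin animals. Fibroblast markers (7 genes) summed to 58113, 16430 and 14174 CPM in the same saline libraries and to 6854 to 17873 CPM after rhAgrin.

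The members differed in how closely their level followed the marker sums. HK3 stood at 30 to 59.3 CPM per 1000 CPM of pan-leukocyte markers in the 7 day 3 infarct libraries and at 47.5 to 76.3 in the remote ones, overlapping ranges. Within animals HK3 was lower by this measure in the infarct zone, except in animals 571 and 575. For SLC2A5 the corresponding ranges were 35.5 to 49 and 0 to 19.3, with a remote median of 1.07. By day 28 SLC2A5 was at a median of 3.48 per 1000 CPM of pan-leukocyte markers in the infarct zone, while HK3 was at 35.1. Thus the ranges of HK3 relative to leukocyte markers overlapped between zones, whereas SLC2A5 was highest relative to them in the day 3 infarct zone. Elsewhere SLC2A5 reached 19.3 in the day 3 remote library of animal 570 and 16.1 in the day 28 infarct library of animal 523. Per 1000 CPM of neutrophil markers SLC2A5 was at 669 to 1412 in the day 3 infarct zone and 0 to 519 in the remote zone, with a remote median of 15.7. Per 1000 CPM of pan-leukocyte markers PFKFB3 was at 51.1 to 178 in the day 3 infarct zone and at 64.2 to 281 in the remote zone. These ranges overlapped, but within each animal the infarct value was the lower. On day 3 SLC2A6 was also lower in the infarct zone per pan-leukocyte markers, without overlap, at 3.43 to 7.99 against 10.3 to 23.9. By day 28 it was instead higher in the infarct zone of every animal, at 9.29 to 22 against 6.29 to 14.5, overlapping ranges. Per 1000 CPM of fibroblast markers SLC2A6 was at 0.114 to 0.551 in the day 3 infarct zone and 0.114 to 0.439 in the remote zone. SLC2A4 was at 1.53 to 2.52 per 1000 CPM of cardiomyocyte markers in the day 3 infarct zone and 2.31 to 3.44 in the remote zone, with medians of 1.69 and 3.19. Within each animal SLC2A4 was lower by this measure in the infarct zone. HK1 was at 17.7 to 78.7 per 1000 against 4.6 to 7.06, and so did not fall with the cardiomyocyte markers in proportion. These ratios are descriptions of bulk samples and were given no test.

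Around the members, the rest of the sugar pathway split in the infarct zone on day 3. The counts of each list stand beside 18.2% of all genes called higher and 16.5% lower in saline animals. The pyruvate entry list includes genes of pyruvate dehydrogenase and its regulation. In saline animals 10 of its 12 genes passed as lower and 0 as higher. Among the lower were PDHA1, a subunit of pyruvate dehydrogenase (-2.68 ± 0.26 on the log2 scale), and PDK2, a kinase that regulates that enzyme (-2.71 ± 0.22). Of 7 pentose phosphate genes 5 passed as higher, with TKT, a transketolase, at 2.98 ± 0.16. Among 18 genes of glycolysis below hexokinase, 3 passed as higher, near the share over all genes, and 6 as lower (2 and 6 without animal 573), the largest being muscle phosphofructokinase PFKM (-3.75 ± 0.42) and muscle phosphoglycerate mutase PGAM2 (-3.55 ± 0.47). Glycogen genes passed as lower in 8 of 11 and as higher in 1. The lactate transporters split, SLC16A3 at 1.88 ± 0.25 and SLC16A1 at -1.70 ± 0.17. The median log2 fold change was -2.00 for pyruvate entry and 1.47 for the pentose phosphate path, beside 0.04 over all genes.

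The transporters and enzymes closest to the members did not all take 1 direction either. Of 6 other SLC2A transporters tested, 4 passed as higher and 2 as lower on day 3 in both treatments, where 19.3% of all genes were called higher and 15.5% lower in rhAgrin animals. SLC2A9, a urate transporter, was the largest of those higher (4.39 ± 0.52 in saline animals), and SLC2A11 (-2.44 ± 0.25) the largest of those lower. On day 28 SLC2A9 (1.84 ± 0.52, edgeR adjusted p = 0.0198) and SLC2A10 (1.42 ± 0.20, adjusted p = 7.57e-04) were higher in the saline infarct zone. Beside 5.58% of all genes called higher and 2.25% lower in that comparison, pyruvate entry gave 0 higher and 3 lower of 12, glycolysis 1 higher and 4 lower of 18, and the pentose phosphate path 0 of 7. Without animal 523, SLC2A10 still passed (1.09 ± 0.19, adjusted p = 0.00942), SLC2A9 did not (1.53 ± 0.70, adjusted p = 0.222), and none of the pyruvate entry or glycolysis genes did. In rhAgrin animals none of these lists held a gene that passed on day 28. Of 4 genes of fructose and polyol use tested, SORD, which makes fructose from sorbitol, passed as higher on day 3 (2.23 ± 0.32 in saline animals) and none passed on day 28. Of 13 genes of GLUT4 trafficking, 4 passed as lower on day 3 in saline animals, the insulin receptor INSR (-2.00 ± 0.23) among them, and none on day 28. Of 14 transcriptional regulators of these pathways, 3 passed as higher and 5 as lower on day 3 in saline animals, 4 and 4 without animal 573, and 3 and 3 in rhAgrin animals. The largest differences in saline animals were those of PPARGC1A, a coactivator of mitochondrial genes (-3.86), and KLF15, a regulator of SLC2A4 in muscle and fat (-3.70).

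Likeness across the 28 libraries was measured as Pearson r of log2 CPM against 12919 genes with a symbol. These values describe libraries that share zones and days and carry no test. SLC2A4 was most like PPM1E, MYBPC3, a sarcomere protein, and CAMK2A (r = 0.995 for each). SLC2A5 was most like SLC11A1, a metal transporter of phagocytes (0.963), the gelatinase MMP9 (0.962) and SPP1, osteopontin (0.961). HK3 was most like GGH (0.982), COTL1 (0.981) and UBE2J1 (0.980), and PFKFB3 most like LRRC8D (0.960), INSIG1 and IRF5 (0.958 for each). For SLC2A6 the 3 were MGAM (0.941), the matrix protein fibronectin FN1 (0.930) and the transcription factor RUNX2 (0.924). HK1 was most like FLAD1 (0.951), GYPC (0.947) and ENTPD6 (0.940). HK2 had the lowest best match of the members, DNM2 (0.915), followed by UBE2K (0.895) and AGPS (0.892). HK2 and SLC2A4, the muscle forms, had an r of -0.55 with each other, whereas HK3 and SLC2A5 had 0.92.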

How the data were processed

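RNA from 28 frozen pieces of pig heart was sequenced after poly(A) selection. The authors trimmed reads with cutadapt, aligned them to Sscrofa11 (STAR 2.7.3a), collapsed reads that shared a molecular identifier (Picard 2.22.4) and counted uniquely mapped reads per gene with HTSeq. The deposited count tables hold these raw counts, and the authors' normalized tables were not used. Totals were 15.38 to 34.77 M counts per library, and counts of 0 and intervals cover counting error only. The infarct column of animal 577 is named 577B, and the letter is not explained by the labels.

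Counts were tested with edgeR 4.0.16 (robust quasi-likelihood, filterByExpr, TMM, Benjamini-Hochberg adjustment over all genes), with animal as a block for zone contrasts (15409 genes) and without it within the infarct (14968) or remote zone (14324). The study's thresholds were kept. The SE given with an edgeR log2 fold change is its absolute value divided by the square root of the quasi-likelihood F, an approximation. Zones came from the same animal, and residuals of an animal's 2 libraries correlated at 0.129 to 0.617. Positions, exon lengths and promoters came from RefSeq by symbol. All members were named, with the 3 genes most like each and up to 2 called genes per list. Members and lists were chosen with earlier results of these data known. Alternatives were DESeq2 1.42.0, other scaling, filters and block, and leaving out each animal.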

Additional observations from a re-analysis of the deposited data

How the results depend on the processing

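Members called were counted per comparison and direction in each refit. These counts stayed within 1.5 times the main count in 380 of 392 cases that left out an animal and in 150 of 160 under other settings. Many cases were 0 in both fits or came from comparisons that did not use the animal left out. The shares therefore say little about stability. The within-library ratios moved by less than 1 SD in all 8 recomputations under another setting. They did so too in all 28 without an animal. Leaving 1 animal out of a group can never move its mean by 1 SD of that group, so nothing is read from those 28. Without the replicate block 0 members passed as lower in saline animals on day 28 (SLC2A4, -1.29) and HK2 no longer passed in saline animals on day 3 (1.51, adjusted p = 0.0559); the block changed no other call of a member, and the cause was not tested. With only the libraries of 1 treatment and day, 0 members were called higher and 0 lower in saline animals on day 28, and 2 lower in rhAgrin animals on day 3. With adjusted p alone, 2 members were lower on day 3 in each treatment, and 2 were higher on day 28 against day 3 in rhAgrin infarct zones. For rhAgrin against saline infarct zones on day 28, 3 members were called lower by DESeq2, 3 with library totals alone and 2 with median-of-ratios scaling.

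Leaving out 1 animal gave 0 to 2 members called higher and 0 to 1 lower in saline animals on day 28, the lowest without animal 523. It gave 1 to 2 lower on day 3 in each treatment (2 without animal 573 or 576), and 0 to 2 lower for rhAgrin against saline infarct zones on day 28.

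Signs turned only for differences that had not passed. Without the block HK2 gave 0.06 in the day 3 response to rhAgrin. With library totals alone HK1 gave 0.04 and HK3 0.00 in that response, HK2 -0.26 in the day 28 response, and HK1 -0.29 for day 28 against day 3 in saline infarct zones. DESeq2 gave -0.02 for HK2 in the day 28 response. Leaving out 1 animal gave ranges across 0. In the day 3 response these were -0.24 to 0.23 for HK1, -0.69 to 0.26 for HK2, -0.49 to 0.39 for HK3, -0.13 to 0.74 for PFKFB3 and -0.04 to 0.69 for SLC2A6. HK2 gave -0.43 to 0.34 in the day 28 response and -0.66 to 0.09 between zones in saline animals on day 28, and HK1 -0.10 to 0.29 for day 28 against day 3 in saline infarct zones.

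The planned ratio of SLC2A3 to SLC2A4 was not run because no row carried the symbol SLC2A3. The ratio of SLC2A5 to SLC2A4 was added after seeing the data. Depth limits SLC2A5, with 0 to 28 counts in remote libraries. With 3 and 4 animals a group, members that did not pass cannot be called unchanged. Some missed only the fold threshold, such as PFKFB3 in saline animals on day 28 (0.89, edgeR, adjusted p = 0.0196).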
